A study of Mus musculus with 32 samples.

Results

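The chromatin around Lcn2 and Hp was described in the liver of adrenalectomized mice injected with dexamethasone, a synthetic glucocorticoid, or with vehicle. The members are the intervals of 5 deposited mm9 lists whose centre lay in chr2:32150000-32350000 (the Lcn2 window, 200 kb) or chr8:112030000-112170000 (the Hp window, 140 kb). They number 104 of 180039 intervals, 66 in the Lcn2 window and 38 in the Hp window. The lists hold glucocorticoid receptor (GR) peaks, C/EBPβ peaks of each treatment, and DNase I hypersensitive sites (DHS, stretches of open chromatin) of each treatment.

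The dexamethasone group is male C57BL/6 mice, 8 weeks old, adrenalectomized and given dexamethasone (1 mg/kg, intraperitoneally, as a cyclodextrin complex), and the vehicle group is the same kind of mice given cyclodextrin alone. Both groups lacked the adrenal source of glucocorticoid, and the tissue is whole liver, in which a site open in fewer cells and a site less open in each cell cannot be told apart. The lists hold no expression values, so neither the tissue label nor the activity of Lcn2 and Hp was checked. The study was designed around 1 h of dexamethasone and has 32 samples in 16 groups. Each dexamethasone and vehicle group of DNase, GR and C/EBPβ samples without adenovirus has 2 samples, but each list is a single set of positions with no height, count or replicate column. The GR list names no treatment and was used as 1 set. The study also has GR samples from livers given adenovirus (adGFP or adDN-C/EBP), and whether these entered the GR list is unknown. Read depth is unknown, and differences between the treatments have no replicate check. The members were selected by the measured positions of the intervals, and the loci were proposed with results of these lists known, so all counts and widths in them are descriptions with no test, given beside the same shares over the whole lists.

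Lcn2 encodes lipocalin 2, a secreted protein that binds bacterial siderophores and so withholds iron. Hp encodes haptoglobin, a plasma protein that captures free haemoglobin. Both are acute-phase genes, which the liver turns up in inflammation through C/EBP, STAT and NF-κB family factors, and glucocorticoids are known to act together with cytokines on this class of genes. GR binds DNA after taking up hormone, and C/EBPβ is a leucine zipper factor of hepatocytes. In the RefSeq gene order of GRCm38.p6, Lcn2 stands between 1110008P14Rik and Ptges2, with Ciz1 and Slc25a25 beyond them. Hp stands between Txnl4b and Dhodh, with Dhx38 and Pkd1l3 beyond them. The mm9 positions of these genes were not used here, so no interval was assigned to a gene, a promoter, an exon or an intron. Below, Lcn2 or Hp beside an interval names its window only, and the interval may belong to a neighbouring gene.

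The Lcn2 promoter is shown because it can be searched for the motifs of the factors mapped here. The sequence is the 250 bases before the RefSeq gene start, GRCm38.p6, chr2:32387740-32387989, minus strand, 5′ to 3′. Capitals mark the only match among 5 searched motifs, a C/EBP motif written as TTGCNNAA.
Lcn2 promoter: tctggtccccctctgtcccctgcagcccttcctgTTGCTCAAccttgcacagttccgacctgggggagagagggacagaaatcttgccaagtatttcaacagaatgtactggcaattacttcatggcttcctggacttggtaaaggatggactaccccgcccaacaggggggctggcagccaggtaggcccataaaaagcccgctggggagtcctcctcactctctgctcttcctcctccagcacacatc

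The match TTGCTCAA begins at base -216 relative to the gene start. Both strands were searched, and the motif was found in 3142 of 32851 RefSeq promoters of this length (9.56%). The other motifs were not matched in these 250 bases: the full GR element, AGAACA and TGTTC with 3 free bases between them (found in 0.0304% of promoters), its AGAACA arm alone (16.1%, which also lies within the full element), NF-κB as GGG and TTTCC with 2 free bases between them (1.41%) and STAT as TTCNNNGAA (7.02%). Among the neighbours with an entry, 2 of 3 Slc25a25 promoters held the C/EBP motif, and the promoters of Ciz1, 1110008P14Rik, Ptges2 and Txnl4b held none of the 5 motifs. Hp had no entry in the promoter table. The promoter's build differs from that of the lists, so which interval covers it was not determined.

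GR peaks were dense in the Lcn2 window and fewer in the Hp window. The Lcn2 window held 16 GR peaks, and 12338 of 12345 other autosomal windows of 200 kb (99.9%) held fewer, 3 as many and 4 more, with a mean of 0.935 per window. The Hp window held 6 GR peaks, and 17269 of 17643 other autosomal windows of 140 kb (97.9%) held fewer, with 237 holding more and a mean of 0.655. C/EBPβ peaks and DHS were also more numerous than in most windows. For Lcn2, 96.1% of windows had fewer than its 10 C/EBPβ peaks after dexamethasone and 94.4% fewer than its 8 after vehicle. For Hp, 92.6% had fewer than its 6 peaks after dexamethasone and 94.2% fewer than its 6 after vehicle. For DHS, 94.8% of windows had fewer than the 17 of the Lcn2 window after dexamethasone and 94.2% fewer than its 15 after vehicle. At Hp, 85.9% of windows had fewer than its 9 DHS after dexamethasone and 93.4% fewer than its 11 after vehicle.

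**Figure D1:**
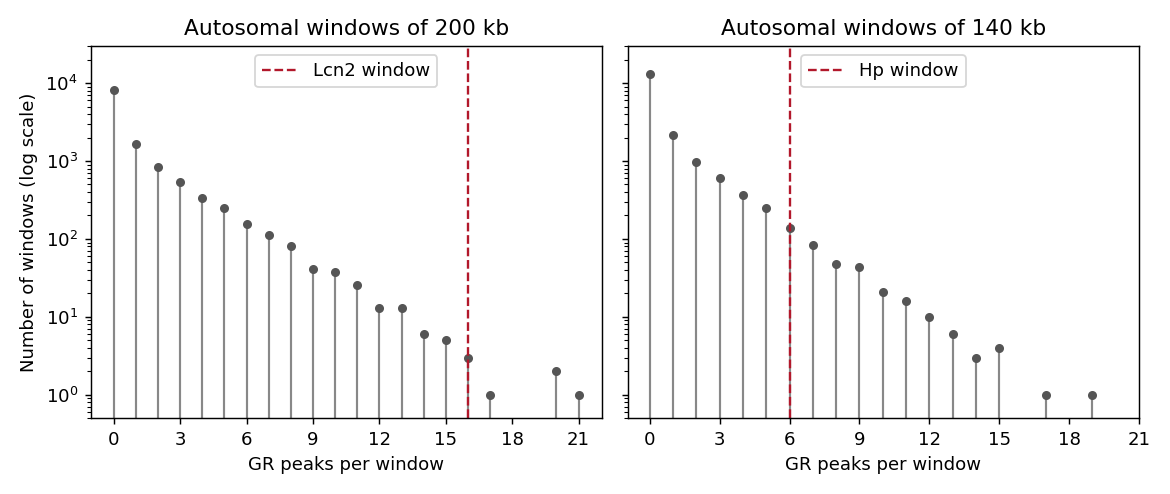
Number of autosomal windows (vertical axis, log scale) by GR peaks per window (horizontal axis), for windows of 200 kb (left) and 140 kb (right), leaving out windows that overlap the locus. Dashed lines mark the Lcn2 window (16 GR peaks, 4 windows with more) and the Hp window (6 GR peaks, 237 windows with more).

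GR peaks were also many for the number of accessible sites. The Lcn2 window had 0.941 GR peaks per dexamethasone DHS and the Hp window 0.667, against 0.184 over the whole lists. Among other windows with at least 5 dexamethasone DHS, 5 of 4951 exceeded the Lcn2 ratio and 92 of 5323 the Hp ratio. A GR peak lay in 9 of the 17 dexamethasone DHS at Lcn2 (52.9%) and in 5 of 9 at Hp (55.6%), against 16.7% of all dexamethasone DHS.

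Within the Lcn2 window most GR peaks were gathered around and to the right of its midpoint. The first 93359 bp of the window held no GR peak, although 4 dexamethasone DHS and 5 vehicle DHS reached into them, the last of each being the DHS of the first GR peak. The only C/EBPβ peak there was found after dexamethasone only. A stretch of 40413 bp, chr2:32264108-32304521, held 13 of the 16 GR peaks. The 9 dexamethasone DHS that reach into this stretch summed to 9740 bp at full width, and the 7 vehicle DHS to 5020 bp. Some of these DHS reach past its ends, so the sums are not shares of its bases. Of the 15 gaps between adjacent GR centres, 7 were 1000 bp or less, against 7.26% of gaps over the genome. The shortest gap was 211 bp and the median 1024 bp, against 29234.5 bp over all GR peaks.

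At Hp, 5 of the 6 GR peaks lay within 12803 bp, chr8:112096990-112109793, and the centre of the sixth lay 23563 bp further on. The 5 dexamethasone DHS that reach into that core summed to 7502 bp at full width, and the 7 vehicle DHS to 5359 bp. Some of these DHS reach past the ends of the core, so the sums are not shares of its bases. Of the 5 gaps between adjacent GR centres, 2 were 1000 bp or less, and the shortest was 702 bp. On its left side the Hp window had no near neighbour: the nearest GR peak outside it lay 515387 bp before its start, while the first one inside lay 67065 bp after it. On the right the last GR peak was 36719 bp inside the edge and the next one 149316 bp outside. For Lcn2 the nearest outside GR peaks were 45560 bp before the start and 33280 bp after the end, and those inside 93434 bp and 9409 bp from the edges. The member nearest to an edge was a vehicle DHS, chr2:32149873-32150361, whose centre lay 117 bp inside the Lcn2 window.

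**Figure D2:**
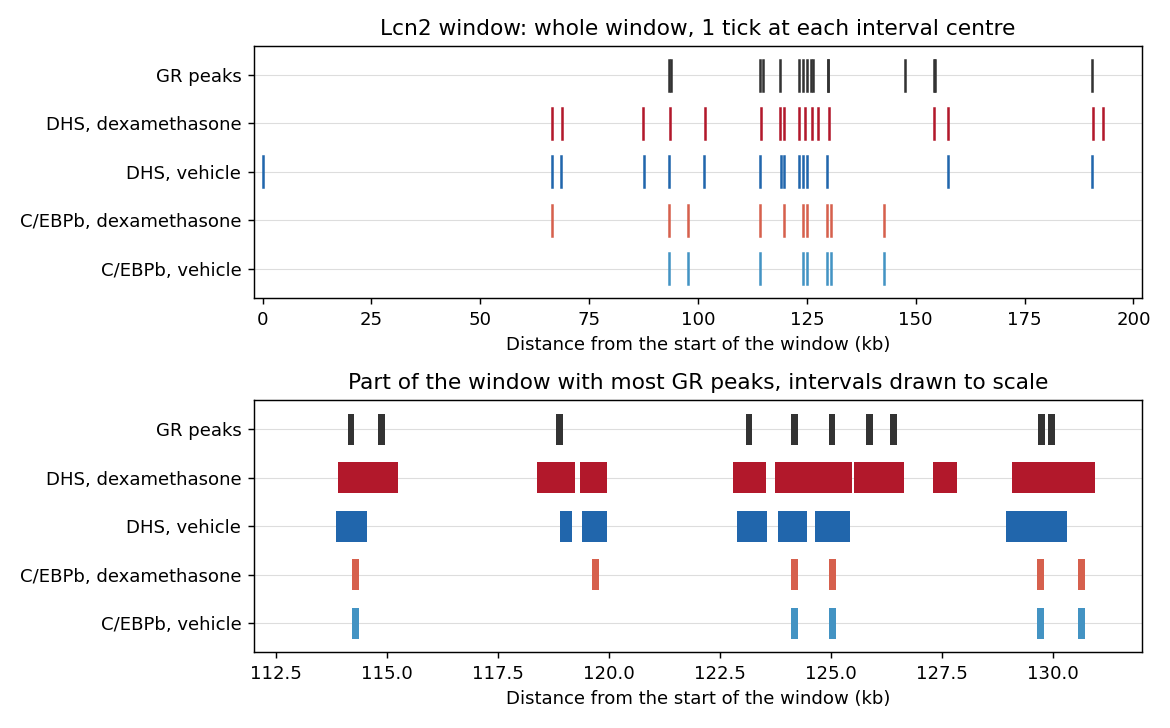
Intervals of the Lcn2 window by distance from the window's start (kb), with GR peaks on top, then DHS after dexamethasone and vehicle, then C/EBPβ peaks after dexamethasone and vehicle. The upper panel marks the centres of all 66 intervals. The lower panel draws the stretch with most GR peaks to scale and shows dexamethasone DHS that reach past the vehicle DHS, such as the first one (1359 bp against 697 bp).

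The GR peaks of the Lcn2 window fell into 4 kinds of chromatin. Of the 16, 9 overlapped a vehicle DHS (56.2%, 95% Wilson interval 33.2 to 76.9), against 79.2% of all GR peaks. A further 4 of 16 lay in DHS found after dexamethasone only (dex-only), against 15.6% of all. Another 2 lay in a DHS of both lists, on bases that only the dexamethasone interval covered (12.5%, against 1.98%), and 1 lay in no DHS (6.25%, against 3.26%). Wilson intervals cover counting error only, and neighbouring peaks are not independent. In all, 7 Lcn2 GR peaks lay outside vehicle DHS, a number that 3 of the 12345 other windows exceeded and 1 equalled. Such ranks depend on where the windows are cut. The highest number was 10 among the windows of 200 kb and 15 among the smaller ones of 140 kb. With intervals up to 500 bp apart counted as overlapping, 3 lay in a dexamethasone DHS but no vehicle DHS, against 6 when at least 1 bp had to be shared. The share of all GR peaks at 500 bp is not given here.

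At Hp, 5 of 6 GR peaks overlapped a vehicle DHS (83.3%, 43.6 to 97.0), which is close to the 79.2% of all GR peaks. None lay in a dex-only DHS, and 1 lay where only the dexamethasone interval of a DHS of both lists reaches. The difference between the Lcn2 and Hp shares was not tested, and their Wilson intervals overlap.

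**Figure D3:**
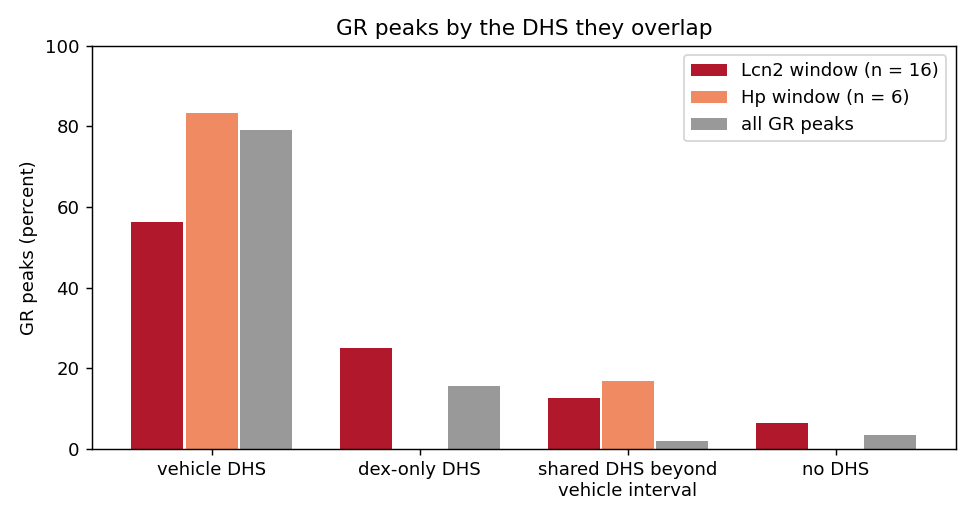
Share of GR peaks (percent) by the DHS they overlap, for the Lcn2 window (16 peaks), the Hp window (6 peaks) and all 11666 GR peaks. The Lcn2 window has 56.2% in vehicle DHS, the Hp window 83.3% and the whole list 79.2%.

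Of the 16 GR peaks of the Lcn2 window, 12 lay in pairs within a DHS. Of the 9 dexamethasone DHS with a GR peak, 6 held 2 of them (66.7%, 35.4 to 87.9), against 6.16% of all dexamethasone DHS with GR that held more than 1. None of the 12345 other windows had so many such DHS, and the highest had 4. At Hp, 1 of 5 held 2 GR peaks. Counting DHS with several GR peaks was decided after the lists had been seen.

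The first pair lay at chr2:32243359-32243509 and chr2:32243743-32243893, in a DHS of 1211 bp after dexamethasone and 604 bp after vehicle (site 5 in window order). The first of these GR peaks overlapped the vehicle DHS and a C/EBPβ peak of both lists, with centres 2 bp apart. The second lay past the right end of the vehicle DHS and 382 bp from the nearest C/EBPβ centre. The dexamethasone interval reached 479 bp further right than the vehicle one and 128 bp further left.

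Site 7 had the same layout. Its DHS was 1359 bp wide after dexamethasone and 697 bp after vehicle, and reached 711 bp further to the right. The GR peak at chr2:32264108-32264258 lay in the vehicle part and overlapped a C/EBPβ peak of both lists, with centres 104 bp apart. The GR peak at chr2:32264790-32264940 lay in the added part, with no C/EBPβ peak.

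The next GR peak, chr2:32268811-32268961, straddled the left edge of the narrowest vehicle DHS of the window. That site (site 8) was 865 bp wide after dexamethasone and 276 bp after vehicle, and 511 bp of the difference lay on the left, where the GR peak sits. No C/EBPβ peak overlapped it, but a C/EBPβ peak found after dexamethasone only lay 807 bp away, in the neighbouring site 9.

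The densest group of the window lay at chr2:32272789-32276629. These 3840 bp held 5 GR peaks in 3 dexamethasone DHS separated by 204 and 42 bp. Of the bases, 93.6% were in DHS after dexamethasone, against 55.1% after vehicle. The stretch was cut at the outer edges of these dexamethasone DHS. A high share after dexamethasone is therefore built into the choice, and the shares are no measure of a gain. The first GR peak, chr2:32273073-32273223, lay in a DHS of nearly equal width in the lists (749 bp after dexamethasone, 671 bp after vehicle). The GR peaks chr2:32274097-32274247 and chr2:32274943-32275093 each coincided with a C/EBPβ peak of both lists, with centres 1.5 and 10 bp apart. They lay in separate vehicle DHS of 664 and 782 bp, in whose place the dexamethasone list has 1 DHS of 1720 bp. Of all dexamethasone DHS, 2.14% overlapped more than 1 vehicle DHS.

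The last pair of that group, chr2:32275791-32275941 and chr2:32276323-32276473, lay in a dex-only DHS of 1125 bp, chr2:32275504-32276629, without C/EBPβ. A second dex-only DHS, chr2:32303853-32304747, held the pair chr2:32304121-32304271 and chr2:32304371-32304521, whose centres were 250 bp apart. The nearest C/EBPβ centre was over 11 kb from both (11450.5 and 11700.5 bp). Of all dex-only DHS with a GR peak, 1.68% held more than 1. These 30 DHS include the 2 of the Lcn2 window, and no other window of the 12345 had more than 1. This count was also chosen after the lists had been seen, and the rank depends on where the windows are cut.

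The remaining Lcn2 GR peaks were a pair and 2 single ones. The pair chr2:32279667-32279817 and chr2:32279878-32280028 lay in the widest DHS of the window in either list. It spanned chr2:32279079-32280950 after dexamethasone (1871 bp) and chr2:32278931-32280310 after vehicle (1379 bp). The first of them overlapped a C/EBPβ peak of both lists and the second did not. The GR peak chr2:32297428-32297578 lay in no DHS and 4757.5 bp from the nearest C/EBPβ centre. The GR peak chr2:32340516-32340666 lay alone near the window's right end in a DHS of 822 bp after dexamethasone and 624 bp after vehicle, 47845.5 bp from C/EBPβ.

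At Hp the widest change lay at the first GR peak, chr8:112096990-112097140. Its DHS was 2843 bp wide after dexamethasone (chr8:112096301-112099144) and 1121 bp after vehicle, extending 548 bp further left and 1174 bp further right, and 55 of the 63473 dexamethasone DHS were wider. No C/EBPβ peak overlapped this DHS in either list. The GR peaks chr8:112103030-112103180 and chr8:112103732-112103882 lay in vehicle DHS of 863 and 556 bp, which the dexamethasone list joins into 1 of 1626 bp. The first coincided with a C/EBPβ peak of both lists (centres 13 bp apart) and the second had none.

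The GR peaks chr8:112108813-112108963 and chr8:112109643-112109793 lay in neighbouring DHS that were 4 bp apart after dexamethasone, each on a C/EBPβ peak of both lists (centres 78 and 19 bp apart). The first DHS was 1381 bp wide after dexamethasone and 1319 bp after vehicle, where it was the widest of the window (chr8:112108009-112109328), and the second was 871 bp after dexamethasone and 614 bp after vehicle. The last GR peak, chr8:112133206-112133356, lay alone in the added part of a DHS of 1597 bp after dexamethasone and 868 bp after vehicle. That DHS reached 712 bp further right after dexamethasone, towards and past the GR peak, and 22111 bp separated it from the nearest C/EBPβ centre.

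**Figure D4:**
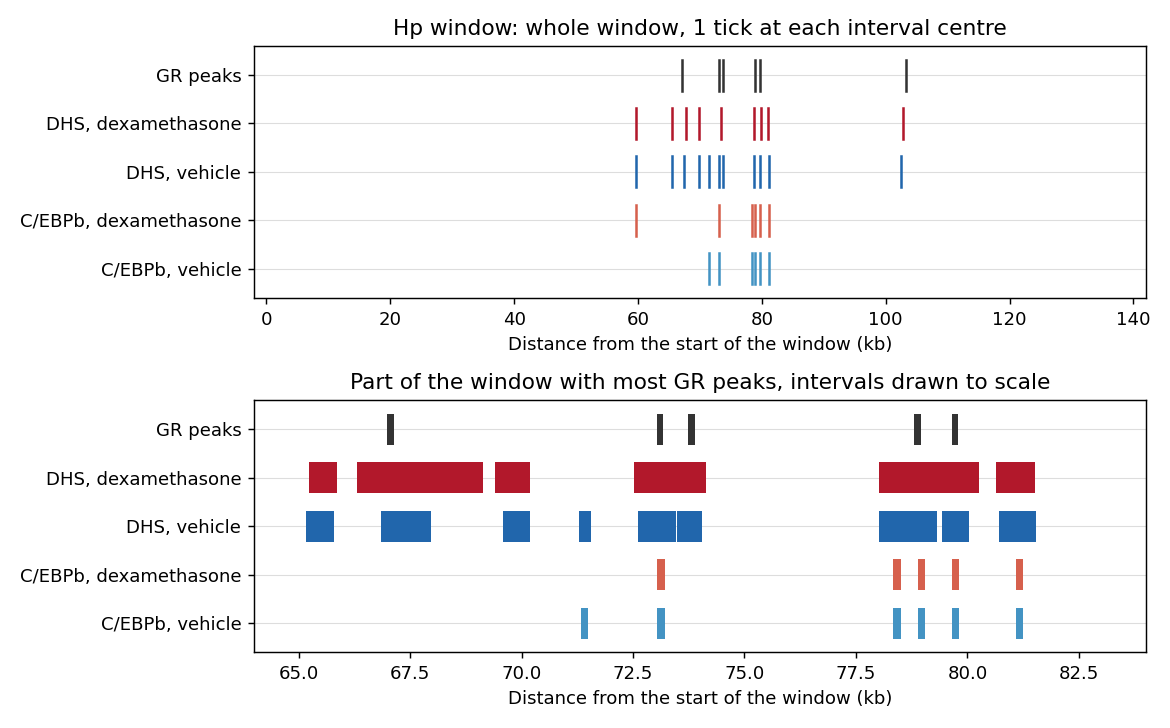
Intervals of the Hp window by distance from the window's start (kb), in the same order of rows: GR peaks, DHS after dexamethasone and vehicle, C/EBPβ peaks after dexamethasone and vehicle. The upper panel marks the centres of all 38 intervals. The lower panel shows the DHS of 2843 bp after dexamethasone, against 1121 bp after vehicle, and a vehicle-only DHS with a vehicle-only C/EBPβ peak. The pair of dexamethasone DHS 4 bp apart looks joined at this scale.

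Most Lcn2 GR peaks had no C/EBPβ peak. A vehicle C/EBPβ peak overlapped 5 of 16 (31.2%, 14.2 to 55.6), against 50.4% of all GR peaks, and the dexamethasone list gave the same 5, against 62.0%. Counting C/EBPβ peaks up to 500 bp away, the number was 8 of 16 by either list. The share of all GR peaks at 500 bp is not given here, so this number cannot be set against 50.4% or 62.0%. At Hp a C/EBPβ peak overlapped 3 of 6 GR peaks by either list (Wilson interval 18.8 to 81.2%). Within vehicle DHS the shares were close to that of the whole list: 5 of 9 at Lcn2 (55.6%) and 3 of 5 at Hp (60.0%), against 61.9%. Outside vehicle DHS no C/EBPβ peak of either list overlapped the 7 Lcn2 GR peaks (0 of 7, interval 0 to 35.4%) or the single Hp one, against 24.8% of all such GR peaks. The C/EBPβ centre nearest to a GR centre lay, after dexamethasone, a median of 692.5 bp away at Lcn2 and 383.5 bp at Hp, against 45 bp over all GR peaks. In the vehicle list this median was 708 bp at Lcn2 and 383.5 bp at Hp, and 136.75 bp over all GR peaks. Of the 7 DHS with 2 GR peaks in both windows, 4 had C/EBPβ at 1 of the 2, 1 at both and 2 at neither. Over all dexamethasone DHS with 2 GR peaks, 49.7% had C/EBPβ at 1 of them.

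After dexamethasone the Lcn2 window held 10 C/EBPβ peaks, of which 2 were absent from the vehicle list, the same share as in the whole list (20.0%). None of its 8 vehicle peaks was lost, against 10.6%, and 1 loss would move this share past that of the whole list. At Hp, 1 of 6 was found after dexamethasone only and 1 of 6 after vehicle only, and 1 peak more or less would move either share past that of the whole list. None of the 3 peaks found after dexamethasone only overlapped a GR peak, against 27.5% of such peaks in the whole list that did. Here too, 1 overlap would move the share past that of the whole list. They lay at chr2:32216402-32216552, chr2:32269618-32269768 and chr8:112089649-112089799, and all 3 lay in DHS of both lists without GR. The vehicle-only peak, chr8:112101332-112101482, lay in the vehicle-only DHS of the Hp window, chr8:112101284-112101561, which was 277 bp wide.

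GR overlapped 5 of the 10 dexamethasone C/EBPβ peaks at Lcn2 and 3 of 6 at Hp, against 28.6% of that list. Of the vehicle peaks it overlapped 5 of 8 at Lcn2 and 3 of 6 at Hp, against 26.0%. At Lcn2, 2 C/EBPβ peaks of both lists, chr2:32247688-32247838 and chr2:32292665-32292826, lay in no DHS of either list. Another, chr2:32280563-32280716, lay in the added right part of the widest DHS, so that 3 of 8 vehicle C/EBPβ peaks were outside vehicle DHS, against 17.1%, and 2 of 10 dexamethasone ones outside dexamethasone DHS, against 14.2%. At Hp all 6 peaks of each list lay in that treatment's DHS. The 2 Hp peaks of both lists that no GR peak overlapped, chr8:112108341-112108510 and chr8:112111090-112111250, lay in DHS of both lists.

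DHS gains and losses between the lists were few in number. At Lcn2, 4 of 17 dexamethasone DHS were absent from the vehicle list (23.5%, against 23.8% of all), and 1 of 15 vehicle DHS was absent from the dexamethasone list, against 14.9%. The share of gained DHS at Lcn2 was thus close to that of the whole list. Of the 4 gained DHS, 2 held GR, against 1788 of 15076 dex-only DHS in the whole list. The other two, chr2:32277287-32277834 and chr2:32342650-32343175, held neither GR nor C/EBPβ. At Hp no DHS was gained and 1 of 11 was lost. With every interval set to 300 bp around its centre, the gained DHS numbered 7 at Lcn2 and 2 at Hp, and the lost ones 5 at Lcn2 and 4 at Hp. The shares over the whole lists at 300 bp are not given here, so these counts cannot be set against 23.8% or 14.9%.

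The matched DHS with GR were wider after dexamethasone in both windows. Matched DHS are those that overlap each other and no other. Of these, 6 of 6 with GR at Lcn2 and 4 of 4 at Hp were wider in the dexamethasone list. The share was 70.8% of all matched DHS with GR. GR was counted by overlap with the dexamethasone interval, so a DHS that widened onto a GR peak joined this group through its width. At Hp this was so for the DHS of 1597 bp, whose only GR peak lay past its vehicle interval. Every other matched DHS with GR in the windows held a GR peak that overlapped its vehicle interval. On the log2 scale, the width after dexamethasone over that after vehicle had a median of 0.70 at Lcn2 (range 0.16 to 1.65) and 0.69 at Hp (0.07 to 1.34), against 0.12 over the 8113 matched DHS with GR. At least a 1.25-fold width was reached by 5 of 6 at Lcn2 and 3 of 4 at Hp, against 25.6%. Sites 5, 7 and 8 at Lcn2 and the DHS of 2843 and 1597 bp at Hp had ratios of 1.00, 0.96, 1.65, 1.34 and 0.88 on the log2 scale. Between 95.3% and 99.7% of matched DHS with GR had lower ratios than these 5.

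DHS without GR differed less in width between the lists. At Lcn2 their median log2 ratio was -0.07 (range -0.22 to 0.15, 6 DHS), and 2 of 6 were wider after dexamethasone. At Hp it was 0.08 (0.04 to 0.36, 4 DHS), and 4 of 4 were wider, 1 of them at least 1.25-fold. Over all matched DHS without GR, 46.7% were wider after dexamethasone and 12.6% at least 1.25-fold, and over all matched DHS 51.1% were wider. At Lcn2 the ranges with and without GR did not overlap but nearly met, at 0.16 with GR and 0.15 without. At Hp the ranges overlapped. Interval width is set by the authors' calling, whose method is not given in the sources used here. A GR peak can only count here inside a dexamethasone DHS that reaches it.

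Summed at full width, the dexamethasone DHS of the Lcn2 window came to 16235 bp and the vehicle DHS to 10903 bp, a ratio of 1.49. The vehicle sum includes all of the DHS that crosses the window's start. Mean DHS widths at Lcn2 were 955 bp after dexamethasone and 727 bp after vehicle. At Hp the sums were 11521 bp after dexamethasone and 8542 bp after vehicle, a ratio of 1.35, with mean widths of 1280 bp after dexamethasone and 777 bp after vehicle. The whole lists gave a ratio of 1.11, with mean widths of 649 bp after dexamethasone and 650 bp after vehicle. Of other windows with at least 5 vehicle DHS, 92.5% had a lower ratio than Lcn2 and 85.4% a lower ratio than Hp.

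**Figure D5:**
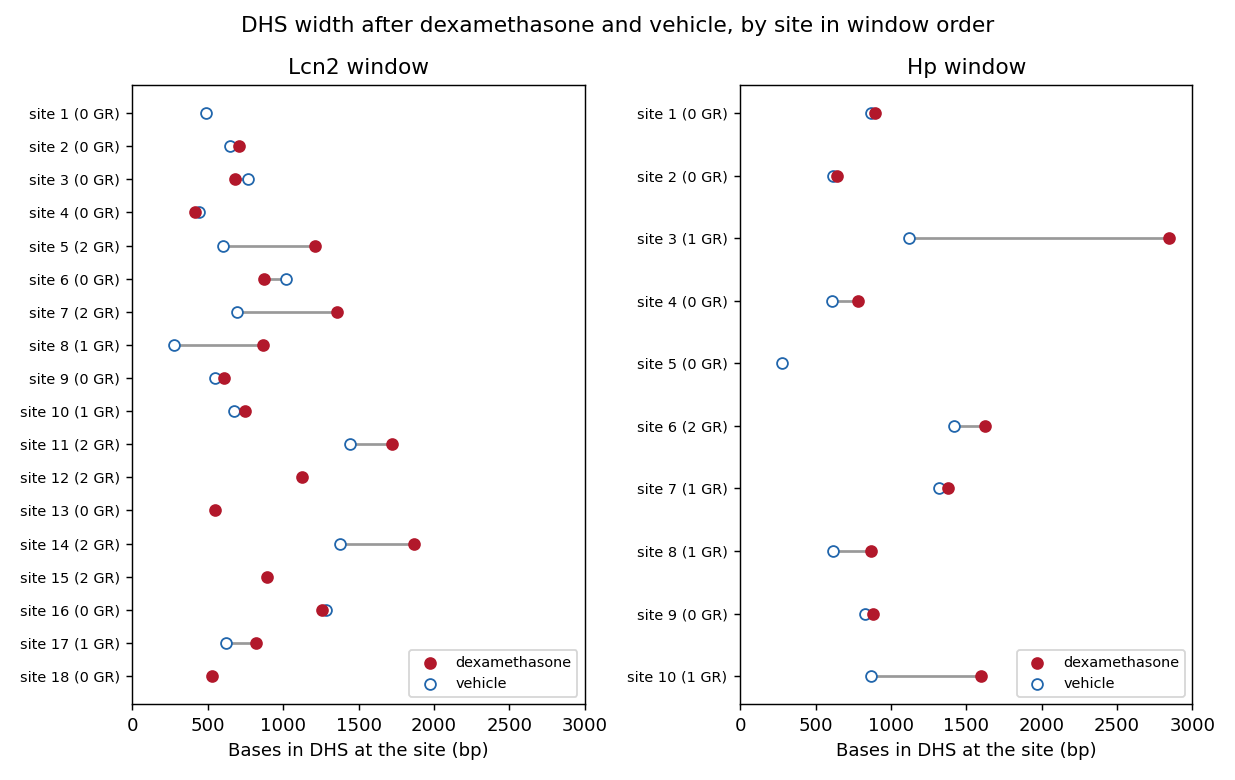
Bases in DHS at each site (bp) after dexamethasone (filled) and vehicle (open), for sites in window order, with the number of GR peaks per site in parentheses. A site with 1 marker was found in 1 list only, and widths are summed where a site holds several DHS of a list (site 11 at Lcn2, site 6 at Hp). Dexamethasone markers lie right of vehicle markers at every site with GR that both lists hold.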

How the data were processed

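The deposited files are 5 interval lists from DNase-seq and ChIP-seq, and the authors' values in them (other than a running identifier) are mm9 positions only, with no score, count or signal. The submitters' processing notes name CASAVA 1.8 and the mm9 build. No aligner, peak caller, calling threshold or pooling of replicates is named there, and whether positions count from 0 or 1 is not stated. All GR intervals are 150 bp wide, so their width holds no information, and C/EBPβ peaks present in both lists have the same coordinates in both. No list of polymerase, input or adenovirus samples was analysed here, but which GR samples the GR list was made from, adenovirus ones included, is not stated.

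Intervals were treated as half-open and called overlapping at 1 bp or more. Windows were tiled from position 0 on autosomes, leaving out those that overlap the locus. The members, motifs and comparisons were chosen with earlier results of these data known, and the counts of DHS with several GR peaks, the extensions of DHS and the stretches after values were seen. Intervals named were every GR peak, every DHS and C/EBPβ peak that overlaps one, every interval found in 1 list only and the widest DHS of each list; positions are printed for these except most DHS and the C/EBPβ peaks that overlap a GR peak, which are given by width or by distance between centres. No test was run. Other acute-phase genes were not placed, since no mm9 annotation was used here. The overlap code was tested on simulated lists and gave the counts of bedtools 2.31.1. It ran in Python 3.11.15, with numpy 2.4.6, figures by matplotlib 3.10.9 and Wilson intervals by scipy 1.17.1. Promoter sequences are RefSeq's (GRCm38.p6).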

Additional observations from a re-analysis of the deposited data

How the results depend on the processing

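No paired analysis was possible because the lists carry no replicate columns, and no replicate could be left out for the same reason. Over 36 results and 102 alternatives, 87 values stayed close to the reported one (counts within 1.5 times, window ranks within their Wilson interval, log2 widths within 1 SD) and 15 moved. The cause of these moves was not tested beyond what each setting builds in.

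The window ranks moved slightly: with 100-kb windows around the middle, 100% (rounded) held fewer GR peaks than Lcn2 and 98.8% fewer than Hp, and among windows with a vehicle DHS 96.6% held fewer than Hp. With intervals up to 500 bp apart counted as overlapping, 3 Lcn2 GR peaks and 0 Hp ones were in dexamethasone DHS outside vehicle DHS, and 8 Lcn2 GR peaks had C/EBPβ by either list. With all intervals set to 300 bp, 0 Hp GR peaks were in dexamethasone DHS outside vehicle DHS, 2 GR peaks were in no DHS at Lcn2 and 2 at Hp, dex-only DHS numbered 7 at Lcn2 and 2 at Hp, and vehicle-only DHS 5 at Lcn2 and 4 at Hp. With only DHS above the median width, 2 Hp GR peaks were in dexamethasone DHS outside vehicle DHS. Shares over the whole lists at these settings are not given here, so the moved counts have no background to be read against. The counts are small, so 1 interval can move a share by several points, and read depth is unknown.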
